A study of Mus musculus with 8 samples.

Results

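The mitochondrial ribosomal protein genes (symbols Mrpl and Mrps followed by a number) were examined in red pulp macrophages of the mouse spleen. Of 55414 gene rows, 78 carried such a symbol, and 77 had at least 10 counts in at least 4 of the 8 libraries. The exception was Mrpl53, listed at 0 in every library. All 77 were among the 14004 genes that were tested after the filter on low counts. The macrophages were sorted by flow cytometry from spleens of WT C57BL/6J mice 2 h after surgery. The mice had either cecal ligation and puncture (CLP), a sepsis model in which gut bacteria leak from the punctured cecum, or Sham surgery, with 4 RNA-seq libraries in each group. The study's stated subject is the mechanism of hemolysis in sepsis. The labels give neither age nor sex, do not name the sorting markers. They also do not tell whether the libraries of a group are from different mice, and the p-values therefore describe only how these 8 libraries spread, which may be technical.

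Mitochondria make a small set of respiratory chain proteins on ribosomes of their own. The ribosomal RNAs of these mitoribosomes are encoded in mitochondrial DNA, while every one of their proteins is encoded in the nucleus, made in the cytosol and imported. Some of these proteins descend from those of bacterial ribosomes, and others are found in mitochondria only. Red pulp macrophages clear old red blood cells from the blood and return the iron of their heme, and the last step of heme synthesis and the making of iron-sulfur clusters take place in mitochondria.

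The CLP libraries held 17333748 to 21409078 counts and the Sham libraries 15392992 to 25665633. Levels are given as CPM, counts divided by the library total after edgeR's TMM scaling, and 10 CPM correspond to 151 to 277 reads in a library. The level of a gene in bulk RNA cannot tell fewer cells of a type apart from less RNA per cell. Of the 12 red pulp macrophage markers, 7 were higher and 2 lower after CLP, where 19.8% of all genes tested were higher and 23.5% lower. With library totals in place of TMM, 1 of these markers was higher and 3 were lower, against 9.20% and 45.9% of all genes. The summed level of these markers was 45315 to 51458 CPM in CLP libraries and 38494 to 47115 CPM in Sham libraries. Sham library 4 stood apart in cycling and erythroid markers. Its summed level of 12 cycling genes was 848 CPM, against 195 to 281 CPM in the other Sham libraries and 268 to 421 CPM in the CLP libraries. Its summed level of 12 erythroid genes was 1460 CPM, against 313 to 504 CPM in the other Sham libraries and 737 to 1263 CPM in the CLP libraries. Summed platelet markers (3 of 4 tested higher) were at 17.9 to 22.7 CPM after CLP and 6.80 to 7.91 CPM after Sham. Summed neutrophil markers (3 of 4 tested higher) were at 102 to 175 CPM after CLP and 76.8 to 92.6 CPM after Sham. Summed B cell markers (1 of 6 tested lower, Cd79b) were at 31.8 to 43.3 CPM after CLP and 44.96 to 48.9 CPM after Sham. No marker of these lists was at 0 in every library. The part of these cells in the results below was not tested, and the counts of members are also given without each library.

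More members were lower than higher after CLP. At an adjusted p under 0.05 (edgeR's quasi-likelihood test, Benjamini-Hochberg over the 14004 genes), 26 members fell, 2 rose and 49 were not called, where 43.3% of all genes tested were called in either direction. The 26 are 33.8% of the members, against 23.5% of all genes tested that fell, and the 2 are 2.60%, against 19.8% of all genes tested that rose. The median log2 fold change (CLP minus Sham) was -0.19 over the members and -0.05 over all genes. The changes were mostly small: 3 members fell at least 2-fold, and the median fold size of the 26 that fell was 1.45. The ranges of the groups did not overlap, with CLP the lower, in 27 members (35.1%, against 22.8% of all genes) and, with CLP the higher, in 2 (18.7% of all genes); in either direction that is 41.5% of all genes.

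The count of members that fell depended on single libraries. It was 14 without Sham 1, 17 without Sham 2, 17 without Sham 4 and 20 to 24 without any other library. Without Sham 1 the 14 members are 18.2%, against 20.1% of all genes lower in that fit. Without Sham 2 the share was 22.1% of members, against 18.6% of all genes, and without Sham 4 it was 22.1%, against 19.4%. The share of members that fell was thus near the background in these fits. The count of members that rose was 2 or 3 in all 8 fits, while 16.13% to 19.95% of all genes rose. Of the 26 lower members, 12 were called in every fit that left out a library, as were both members that rose.

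**Figure D1:**
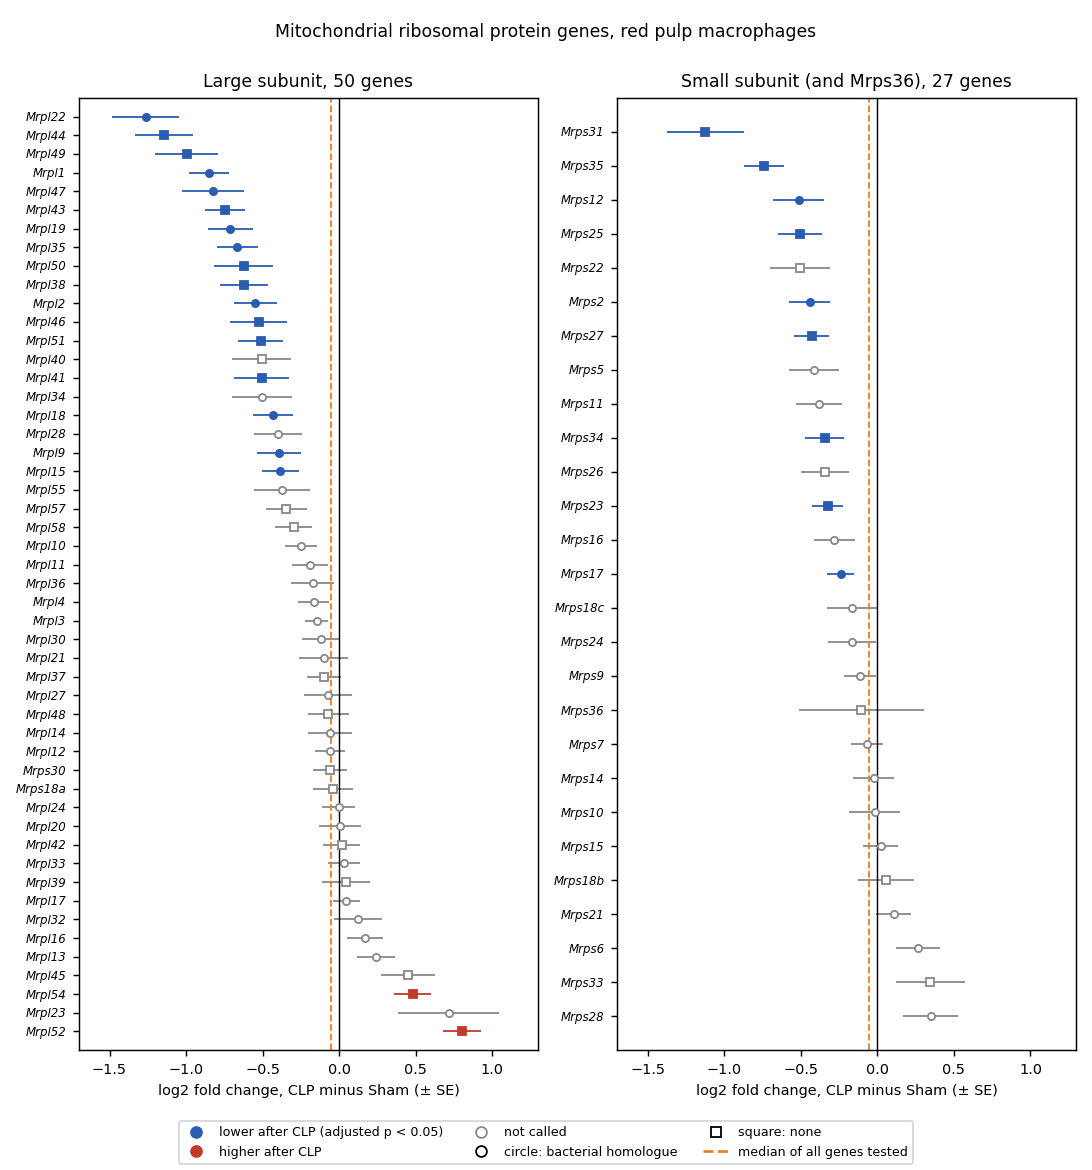
Log2 fold changes (CLP minus Sham, with SE) of the 77 members, sorted within the large subunit and within the small subunit. Mrps36, of another complex, is drawn as a square with the small subunit. Circles are listed with a bacterial homologue, squares are not, and filled symbols passed an adjusted p of 0.05. Most points lie left of 0 and left of the dashed line at -0.05, the median of all genes tested, and Mrpl22 at -1.26 and Mrpl52 at 0.80 lie at the ends.

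Promoter sequences of 4 members are shown, 3 with the lowest and 1 with the highest log2 fold change, so that the starts of genes that moved apart can be compared. They come from RefSeq on build GRCm38.p6, an older build than the mm39 of the counts, and run from 250 bases before to 50 bases after the annotated start, 5′ to 3′ on the gene's strand. They lie at chr11:58171414-58171713 for Mrpl22, chr1:79775768-79776067 for Mrpl44, chr8:22411090-22411389 for Mrps31 and chr14:54426659-54426958 for Mrpl52, each on the plus strand. Capitals mark the motifs searched.
Mrpl22: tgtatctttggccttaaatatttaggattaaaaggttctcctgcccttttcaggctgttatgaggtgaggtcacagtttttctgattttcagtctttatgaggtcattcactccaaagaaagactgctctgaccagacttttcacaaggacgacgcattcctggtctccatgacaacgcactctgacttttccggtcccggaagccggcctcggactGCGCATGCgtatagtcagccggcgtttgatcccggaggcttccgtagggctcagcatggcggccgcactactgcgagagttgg
Mrpl44: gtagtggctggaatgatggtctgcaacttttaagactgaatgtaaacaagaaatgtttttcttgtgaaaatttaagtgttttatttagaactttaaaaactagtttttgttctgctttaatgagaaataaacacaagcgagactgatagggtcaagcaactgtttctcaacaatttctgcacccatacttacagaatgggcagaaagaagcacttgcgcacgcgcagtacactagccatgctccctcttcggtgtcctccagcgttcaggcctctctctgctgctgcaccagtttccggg
Mrps31: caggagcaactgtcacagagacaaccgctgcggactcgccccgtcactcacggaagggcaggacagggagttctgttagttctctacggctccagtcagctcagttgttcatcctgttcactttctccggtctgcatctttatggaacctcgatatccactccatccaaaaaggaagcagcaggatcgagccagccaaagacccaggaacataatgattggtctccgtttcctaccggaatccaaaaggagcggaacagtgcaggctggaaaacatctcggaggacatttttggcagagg
Mrpl52: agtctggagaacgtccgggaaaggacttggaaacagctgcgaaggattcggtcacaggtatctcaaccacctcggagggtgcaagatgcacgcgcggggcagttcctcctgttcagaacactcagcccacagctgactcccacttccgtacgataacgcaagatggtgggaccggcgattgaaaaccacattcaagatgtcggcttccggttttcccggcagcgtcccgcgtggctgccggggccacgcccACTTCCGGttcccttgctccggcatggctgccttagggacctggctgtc
In Mrpl22 the capitals are the core of the site of NRF1, a transcription factor of many nuclear genes for mitochondrial proteins, and in Mrpl52 the core of the site of ETS factors such as GABP. Mrpl44 and Mrps31 held no exact copy of the motifs searched. Variants of a site that differ by a letter were not looked for and are not marked.

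The motifs were GCGCATGC (NRF1), CCGGAAGT (ETS), AAGATGGC (YY1), CACGTG (E-box) and TGACGTCA (CRE). They were searched as exact letters on both strands, and none of them contains another. RefSeq promoters were at hand for 68 of the 77 members. The NRF1 core stood in 11.8% of them, against 5.50% of 9787 promoters of genes tested and 2.80% of all 27025 promoters in the table. The ETS core stood in 16.2%, against 8.71% and 4.00%, and the YY1 core in 17.6%, against 4.91% and 2.88%. Most of the members' YY1 hits lay after the annotated start, from 11 bases (Mrps18a) to 36 bases (Mrps24), and thus within the transcript. The E-box stood in 7.35%, against 10.2% and 7.24%, and the CRE in 2.94%, against 3.33% and 1.88%. Among the 21 promoters of members that fell, 9.52% held the NRF1 core, 19.0% the ETS core and 19.0% the YY1 core. Among the 46 promoters of members that were not called, these shares were 13.0%, 13.0% and 17.4%. The shares are descriptions of letters in a window and were not tested.

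Mrpl22, which lines the tunnel through which the new protein leaves the ribosome, had the lowest log2 fold change. It stood at 2.43, 1.89, 3.07 and 1.92 CPM in the CLP libraries, against 6.37, 4.90, 4.78 and 6.33 CPM in the Sham libraries. Every CLP library was below every Sham library, and the log2 fold change was -1.26 (SE 0.217, adjusted p = 0.000772). These values rest on 29 to 56 reads per CLP library and 82 to 176 reads per Sham library. Mrpl44, a large subunit protein with a fold like that of RNase III, stood at 3.97, 6.19, 7.62 and 6.55 CPM after CLP, against 12.9, 14.2, 11.5 and 15.2 CPM after Sham. The groups did not overlap, and the log2 fold change was -1.14 (SE 0.188, adjusted p = 0.000585). Mrps31, a small subunit protein with no bacterial counterpart, stood at 2.18, 3.32, 4.55 and 4.17 CPM after CLP, against 7.42, 6.14, 6.87 and 10.6 CPM after Sham. Its highest value was in Sham 4, and all Sham values were above all CLP values (log2 fold change -1.13, SE 0.251, adjusted p = 0.00383). Mrpl49, found in mitochondria only, stood at 4.804, 4.45, 8.82 and 5.49 CPM after CLP, against 10.9, 12.1, 11.2 and 12.9 CPM after Sham. CLP 3 came closest to the Sham libraries without reaching them (log2 fold change -0.99, SE 0.206, adjusted p = 0.00246).

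The next members in order fell by less. Mrpl1, whose bacterial counterpart forms the stalk where spent tRNA leaves, averaged 9.15 ± 1.16 CPM after CLP and 16.5 ± 1.56 CPM after Sham (SD, n = 4 each), and its log2 fold change was -0.85 (adjusted p = 0.000377, SE 0.131). Mrpl47, at the tunnel exit, averaged 5.14 ± 1.49 CPM after CLP and 9.10 ± 0.725 CPM after Sham (log2 fold change -0.82, SE 0.202, adjusted p = 0.00667). Mrpl43, found in mitochondria only, averaged 10.6 ± 1.48 CPM after CLP and 17.8 ± 1.61 CPM after Sham (log2 fold change -0.75, SE 0.130, adjusted p = 0.000819). In these 3 genes all CLP libraries were below all Sham libraries. Mrps35 of the small subunit averaged 6.41 ± 0.687 CPM after CLP and 10.7 ± 0.743 CPM after Sham (log2 fold change -0.74, SE 0.133, adjusted p = 0.00101). Mrpl19, whose bacterial counterpart sits where the subunits meet, averaged 8.50 ± 1.49 CPM after CLP and 13.9 ± 1.23 CPM after Sham (log2 fold change -0.71, SE 0.147, adjusted p = 0.00247). Mrpl35, which has a bacterial counterpart, averaged 9.49 ± 1.42 CPM after CLP and 15.01 ± 1.20 CPM after Sham (log2 fold change -0.66, SE 0.134, adjusted p = 0.00213). All 10 of these calls held in every fit that left out a library.

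**Figure D2:**
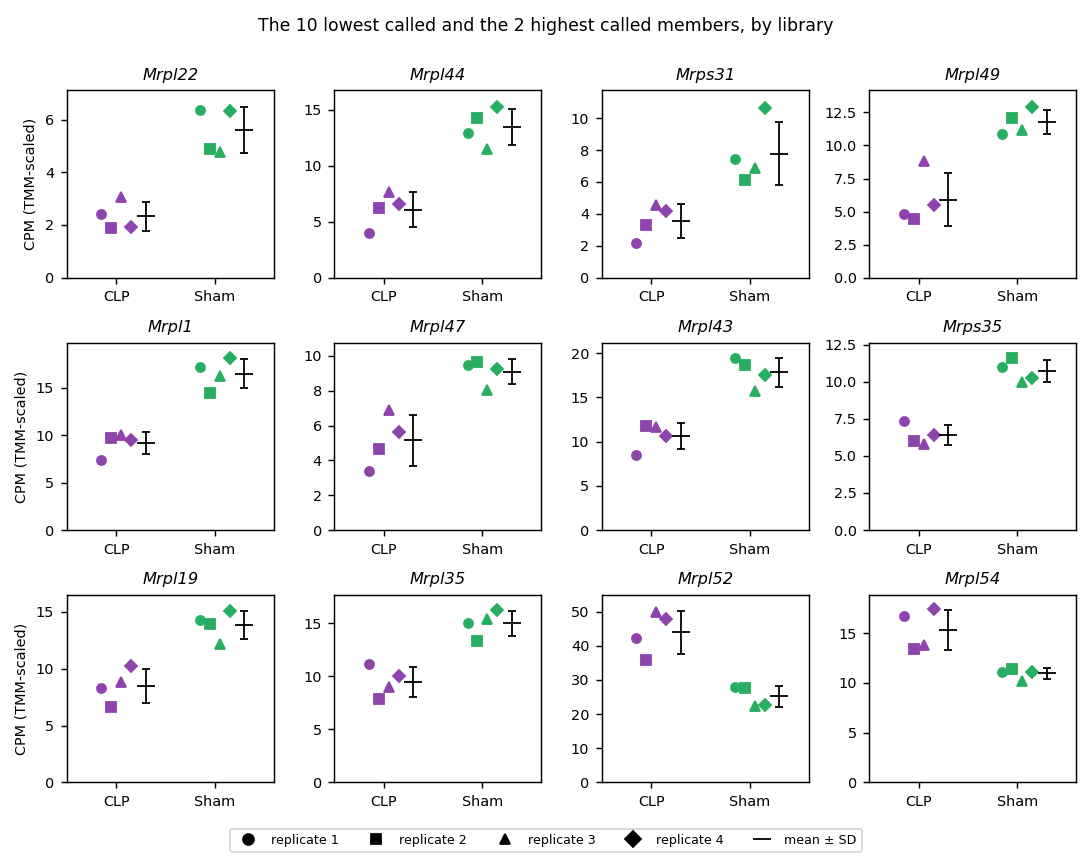
CPM in each of the 8 libraries (1 marker shape per replicate number, bars at mean and SD) for the 10 lowest and the 2 highest called members, with CLP left of Sham in each panel. The groups do not overlap in any panel; CLP lies below Sham in 10 panels and above it for Mrpl52 (35.9 to 49.9 CPM against 22.5 to 27.9 CPM) and Mrpl54.

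The other 16 members that fell had log2 fold changes between -0.62 (Mrpl50) and -0.24 (Mrps17). In the large subunit they were Mrpl50, Mrpl38, Mrpl2, Mrpl46, Mrpl51, Mrpl41, Mrpl18, Mrpl9 and Mrpl15, and in the small subunit Mrps12, Mrps25, Mrps2, Mrps27, Mrps34, Mrps23 and Mrps17. Mrpl2 has a bacterial counterpart beside the site where peptide bonds form, and averaged 9.86 ± 1.80 CPM after CLP and 14.4 ± 0.493 CPM after Sham (log2 fold change -0.55, adjusted p = 0.00782). Mrps12 belongs to the decoding centre, where codon and anticodon are matched, and averaged 6.496 ± 0.748 CPM after CLP and 9.27 ± 1.76 CPM after Sham (log2 fold change -0.52, adjusted p = 0.0275). Only Mrpl38 and Mrpl2 of the 16 kept their call in every fit that left out a library, and Mrps34 (log2 fold change -0.35, adjusted p = 0.0481) lost it in all 8.

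Mrpl52 and Mrpl54, large subunit proteins found in mitochondria only, were the members that rose. Mrpl52 stood at 42.2, 35.9, 49.9 and 47.9 CPM after CLP, against 27.9, 27.6, 22.5 and 22.7 CPM after Sham. The groups did not overlap, and the log2 fold change was 0.80 (SE 0.122, adjusted p = 0.000341). Scaled by library totals alone, Mrpl52 was still higher (log2 fold change 0.49, adjusted p = 0.00428). Mrpl54 stood at 16.7, 13.4, 13.8 and 17.4 CPM after CLP, against 11.1, 11.4, 10.2 and 11.1 CPM after Sham. The groups did not overlap (log2 fold change 0.48, SE 0.122, adjusted p = 0.00807), but with library totals it was no longer called (log2 fold change 0.16, adjusted p = 0.269). Mrpl52 shares no exon base with another gene in the annotation.

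Per length, Mrpl52 was also the most abundant member, at 105 ± 15.04 CPM per kilobase of its principal transcript after CLP and 60.3 ± 7.18 after Sham. Mrpl33 followed at 39.9 ± 2.51 after CLP and 39.0 ± 4.25 after Sham. The next neighbours in the order, Mrps21 (31.6 ± 3.32 after CLP, 29.4 ± 2.64 after Sham) and Mrpl42 (30.3 ± 4.71 after CLP, 30.0 ± 1.86 after Sham), did not differ beyond their spread. The next small subunit members were Mrps6 (14.6 ± 2.01 after CLP, 12.2 ± 1.71 after Sham) and Mrps23 (11.6 ± 0.874 after CLP, 14.5 ± 0.772 after Sham). Of these 6 abundant members, Mrpl52 rose, Mrps23 fell (log2 fold change -0.33, adjusted p = 0.0202) and the others were not called. Across the 77 members, Spearman's correlation of the log2 fold change was -0.33 with principal transcript length, 0.24 with mean CPM and 0.01 with GC content, a description over genes that share the same 8 libraries. The median length was 1688 bases in the members that fell, 1162 in those not called and 511 in the 2 that rose.

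The proteins that ring the end of the exit tunnel did not move as 1 group. Beside Mrpl22 and Mrpl47, which fell, Mrpl24 averaged 23.2 ± 3.25 CPM after CLP and 23.2 ± 0.898 CPM after Sham (log2 fold change -0.0024, adjusted p = 0.988). Mrpl45, which in human mitochondria ties the ribosome to the inner membrane, averaged 21.02 ± 5.49 CPM after CLP and 15.4 ± 1.81 CPM after Sham (log2 fold change 0.45, adjusted p = 0.0571). Mrpl23 had few reads, with 28 to 54 per CLP library and 20 to 38 per Sham library (log2 fold change 0.72, adjusted p = 0.102), and the annotation lists a pseudogene of it. In the stalk that recruits translation factors, Mrpl12 (log2 fold change -0.06, adjusted p = 0.667), Mrpl10 (-0.25, adjusted p = 0.078) and Mrpl11 (-0.19, adjusted p = 0.228) were not called. Of the proteins of the central protuberance, as known from human mitoribosomes, only some are given here. Mrpl38 (-0.62) and Mrpl46 (-0.53) fell, while Mrpl40 (-0.51, adjusted p = 0.056) and Mrpl48 (-0.07, adjusted p = 0.694) were not called. Mrpl58, which frees stalled ribosomes, was not called either (-0.30, adjusted p = 0.0642).

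The 3 relatives of bacterial S18 sit at different places in the mitoribosome, and none was called. The log2 fold change was -0.04 for Mrps18a of the large subunit (adjusted p = 0.828), which is counted here among the members found in mitochondria only. It was 0.06 for Mrps18b (adjusted p = 0.824) and -0.17 for Mrps18c (adjusted p = 0.440), both of the small subunit. Besides Mrpl24, the members nearest 0 were Mrpl20 (8.81 ± 0.578 CPM after CLP, 8.77 ± 1.15 CPM after Sham) and Mrpl42 (20.2 ± 3.13 CPM after CLP, 19.97 ± 1.24 CPM after Sham). Mrps36, which carries a ribosomal name but works in the alpha-ketoglutarate dehydrogenase complex, was the member with the fewest reads and was not called (log2 fold change -0.11, adjusted p = 0.857).

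By subunit, 17 of 50 large subunit members fell (34%) and 2 rose (4%), with a median log2 fold change of -0.18. Of 26 small subunit members 9 fell (34.6%) and none rose, with a median of -0.26. Of all genes tested, 23.5% fell and 19.8% rose. Without Sham 1 the counts of lower members were 10 of 50 and 4 of 26, in a fit where 20.1% of all genes were lower. The small subunit count was 5 without CLP 1, Sham 2 or Sham 4. Summed, the large subunit members stood at 649 ± 30.1 CPM after CLP and 730 ± 26.6 CPM after Sham, and the small subunit members at 250 ± 6.40 CPM after CLP and 292 ± 9.29 CPM after Sham. The groups did not overlap in either sum. By origin, 12 of 46 members with a bacterial homologue fell (26.1%, median -0.17) and 14 of 30 found in mitochondria only fell (46.7%, median -0.35), against 23.5% of all genes. Without Sham 1 these were 6 (13.0%) and 8 (26.7%), against 20.1% of all genes. The 12 became 7 without Sham 4 (15.2%, against 19.4% of all genes). The 14 became 9 without Sham 2 (30%, against 18.6% of all genes). The largest share was in the small subunit members found in mitochondria only, where 6 of 10 fell. Their summed level was 76.2 ± 4.60 CPM after CLP and 100 ± 3.26 CPM after Sham. Without Sham 2, 3 of the 10 were called lower (30%, against 18.6% of all genes). Mrps18a, a relative of bacterial S18 that was not called, is counted here as found in mitochondria only. These splits are descriptions, and the difference between them was not tested.

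Over all 77 members the summed level was 890, 853, 926 and 931 CPM in the CLP libraries, against 1047, 993, 989 and 1060 CPM in the Sham libraries. All CLP sums were below all Sham sums, with a ratio of 0.880. As a share of all counts, without TMM scaling, the members held 0.0779% to 0.0839% of a CLP library and 0.110% to 0.122% of a Sham library, a ratio of 0.706. These scalings differ because TMM factors were 0.873 to 0.915 in CLP libraries and 1.08 to 1.15 in Sham libraries, which moves the median of all genes by -0.32 when library totals are used instead. With library totals 57 members were lower and 1 was higher, against 45.9% of all genes lower and 9.20% higher. The members' median was then -0.51, and it lay 0.139 below that of all genes, against 0.137 with TMM. These distances are alike because the change of scaling shifts all genes by nearly the same amount.

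**Figure D3:**
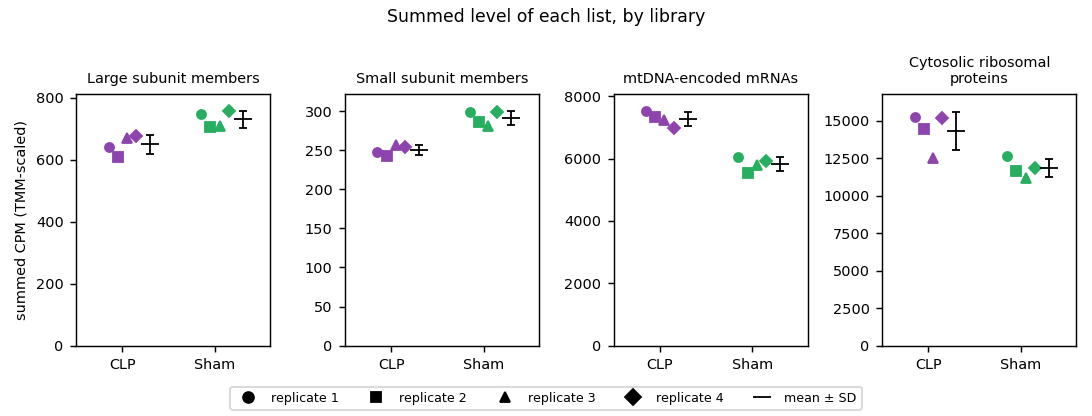
Summed CPM of the large subunit members, the small subunit members, the mitochondrially encoded mRNAs and the cytosolic ribosomal protein genes in each library, with CLP left of Sham and bars at mean and SD. CLP lies below Sham for both subunits (609 to 676 CPM against 706 to 758 CPM in the large one) and above it for the mitochondrial mRNAs (6965 to 7513 CPM against 5541 to 6064 CPM).

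Exons of 32 members share bases with another annotated gene, and no source used here gives the strand setting of the counting. Reads of genes on opposite strands can therefore not be assigned with certainty. Of these 32, 12 fell (37.5%), and of the 45 that share none 14 fell (31.1%) and 2 rose, against 23.5% of all genes lower. The 12 became 7 (21.9%) without Sham 1, Sham 2 or Sham 4, and the 14 became 7 (15.6%) without Sham 1. Of all genes, 20.1% were lower without Sham 1, 18.6% without Sham 2 and 19.4% without Sham 4. Both shares were thus near or below the background in these fits. Mrpl44 shares 126 bases with Wdfy1 (log2 fold change 0.02) and Mrpl49 shares 91 bases with Syvn1 (0.02), and neither neighbour was called. Mrpl43 shares 507 bases with Twnk (-0.90, adjusted p = 0.00187) and Mrpl19 shares 1962 bases with Gcfc2 (-1.29, adjusted p = 0.00136), neighbours that fell too. Mrps25 shares 4590 of its 6576 exon bases with Nr2c2, which also fell (-0.62, adjusted p = 8.34e-05). Mrpl18 fell while its neighbour Tcp1 rose (0.55, adjusted p = 0.000176). Mrpl46 and Mrps11 lie head to head and share 173 bases; Mrpl46 fell (-0.53, adjusted p = 0.0384) and Mrps11 was not called (-0.38, adjusted p = 0.0598). The part of such shared reads in these changes was not tested. Mrpl53, at 0 in all libraries, shares 695 of its 790 exon bases with Gm42688, a gene model on the same strand, which fell to 0.795 ± 0.306 CPM after CLP, against 2.49 ± 0.430 CPM after Sham (log2 fold change -1.62, adjusted p = 0.00149).

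The 5 mitoribosome proteins with other names were not called. Dap3, a GTP-binding protein of the small subunit, averaged 29.5 ± 1.34 CPM after CLP and 26.8 ± 0.676 CPM after Sham (log2 fold change 0.13, adjusted p = 0.186). Ptcd3, an RNA-binding small subunit protein, lay at -0.31 on the log2 scale (adjusted p = 0.137). The log2 fold change was -0.39 for Gadd45gip1 (adjusted p = 0.0727), -0.23 for Chchd1 (adjusted p = 0.225) and -0.10 for Aurkaip1 (adjusted p = 0.430). At an unadjusted p under 0.05 there was 1 among the 5; without CLP 3, 1 was called lower, and with library totals 4 were.

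Genes that build the mitoribosome were lower as well. Of 27 assembly factors 16 fell and 1 rose (59.3% lower, against 23.5% of all genes), with a median log2 fold change of -0.51; the difference from the members was not tested. Mrm2, a methyltransferase of the large ribosomal RNA, averaged 0.556 ± 0.397 CPM after CLP and 4.58 ± 0.746 CPM after Sham (log2 fold change -3.01, SE 0.375, adjusted p = 9.36e-05). Its CLP values were near the floor, at 1.15 CPM in CLP 3 and 0.331 to 0.384 CPM in the others. In a CLP library 1 CPM corresponds to 15.1 to 19.6 reads, so the size of this fall is uncertain. Tfb1m, which methylates the small ribosomal RNA, averaged 1.59 ± 0.357 CPM after CLP and 4.06 ± 0.850 CPM after Sham (-1.34, adjusted p = 0.00133). Trub2, a pseudouridine synthase, averaged 6.96 ± 0.508 CPM after CLP and 14.3 ± 2.48 CPM after Sham (-1.04, adjusted p = 0.0002525). Noa1, a GTPase, rose to 21.9 ± 2.86 CPM after CLP, against 15.4 ± 1.12 CPM after Sham (0.51, adjusted p = 0.00425), but not with library totals (0.20, adjusted p = 0.186). The most abundant of the list, Grsf1 of the RNA granules, was not called (-0.02, adjusted p = 0.886).

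Of the 15 tested translation factors 9 fell and none rose, against 23.5% of all genes tested lower and 19.8% higher (median -0.58). Mtrf1, a release factor, averaged 1.12 ± 0.430 CPM after CLP and 3.92 ± 0.147 CPM after Sham (log2 fold change -1.80, SE 0.270, adjusted p = 0.000321). The initiation factors Mtif3 (-1.51, adjusted p = 0.000571) and Mtif2 (-0.90, adjusted p = 7.94e-05) fell. Taco1, an activator of Co1 translation, fell as well (-1.58, adjusted p = 4.52e-05). The elongation factors Tufm (-0.28, adjusted p = 0.104) and Gfm1 (-0.05, adjusted p = 0.667) were not called, nor was Lrpprc, which stabilises mitochondrial mRNAs and was the most abundant of the list (62.7 ± 1.57 CPM after CLP, 60.04 ± 4.33 CPM after Sham).

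Among 19 genes that copy, transcribe and process mitochondrial DNA and RNA, 5 fell (26.3%) and 3 rose (15.8%), near the 23.5% and 19.8% of all genes tested. Polrmt, the RNA polymerase of mitochondria, averaged 6.30 ± 1.26 CPM after CLP and 14.3 ± 1.43 CPM after Sham (log2 fold change -1.18, adjusted p = 0.000179). Mgme1, a nuclease of mitochondrial DNA, had the lowest value (-1.37, adjusted p = 0.000503). Tfam, which packs and transcribes mitochondrial DNA, was not called (-0.31, adjusted p = 0.0876), nor was Polg, the DNA polymerase of mitochondria (-0.11, adjusted p = 0.225). Tefm, an elongation factor of transcription, rose (0.37, adjusted p = 0.0285; called in 6 of the 8 fits that left out a library), 1 gene rose without CLP 4 or Sham 2, and no gene of the list was higher with library totals.

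The RNAs made in mitochondria were higher after CLP with TMM scaling and not with library totals. Of 13 protein-coding RNAs, 6 were listed at 0 in all libraries, and the 7 tested were all higher, by 0.27 to 0.49 on the log2 scale; with library totals none was called. The most abundant, mt-Co1, averaged 4867 ± 150 CPM after CLP and 3966 ± 130 CPM after Sham (log2 fold change 0.30, adjusted p = 0.00544), and with library totals its log2 fold change was -0.02. The small ribosomal RNA mt-Rnr1 rose by 0.31 (adjusted p = 0.0372; -0.01 with library totals, and called in 3 of the 8 fits that left out a library), and mt-Rnr2 was not called (0.27, adjusted p = 0.440).

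Regulators known to act on nuclear genes for mitochondria moved both ways, with 4 higher (28.6%) and 6 lower (42.9%) of 14 tested, against 19.8% and 23.5% of all genes. Ppargc1b, a coactivator, averaged 8.50 ± 0.666 CPM after CLP and 20.8 ± 1.78 CPM after Sham (log2 fold change -1.29, adjusted p = 9.40e-06). Its partner Esrra fell (-0.94, adjusted p = 8.32e-05), as did the lysosomal regulator Tfeb (-1.51, adjusted p = 1.45e-06). Gabpb1, a subunit of GABP, rose to 60.8 ± 3.92 CPM after CLP, against 27.7 ± 1.81 CPM after Sham (1.14, adjusted p = 2.53e-06), and its paralog Gabpb2 fell (-0.52, adjusted p = 0.00107). Gabpa (-0.10, adjusted p = 0.299) and Nrf1 (0.20, adjusted p = 0.197) were not called. Yy1 rose (0.36, adjusted p = 0.00313), but not with library totals (0.05, adjusted p = 0.598).

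Cytosolic ribosomal protein genes and the nuclear genes of the respiratory chain, the groups most like the members by function or place, were higher or not called. Of 79 cytosolic ribosomal protein genes 51 rose (64.6%, against 19.8% of all genes) and none fell, with a median log2 fold change of 0.26 and all 79 above 0; for the most abundant, Rpl4, it was 0.34 (adjusted p = 0.00376). The 51 became 29 without CLP 4 and 33 without CLP 1. Of 75 nuclear respiratory chain subunits 10 rose (13.3%, fewer than the 19.8% of all genes) and none fell (23.5% of all genes), with a median of 0.15; Atp5a1, an ATP synthase subunit, averaged 566 ± 14.7 CPM after CLP and 437 ± 30.8 CPM after Sham (0.37, adjusted p = 0.00151). The 10 became 6 without CLP 1 or CLP 4 and 19 without CLP 3 or Sham 1. The largest values of these lists were in genes with few reads, Rpl24 (1.01, adjusted p = 0.0446, called in 3 of the 8 fits that left out a library) and Atp5l (0.77, adjusted p = 0.0206, not called without CLP 3). Scaled by library totals, the medians were -0.06 for the cytosolic and -0.17 for the respiratory chain genes, against -0.51 for the members and -0.37 for all genes. Then 1 of 79 cytosolic genes and 18 of 75 respiratory chain genes were lower and none of either list was higher. In both scalings the medians of these lists lay above that of all genes and the members' median lay below it. The change of scaling shifts all genes by nearly the same amount, so library totals are no separate check of this order.

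**Figure D4:**
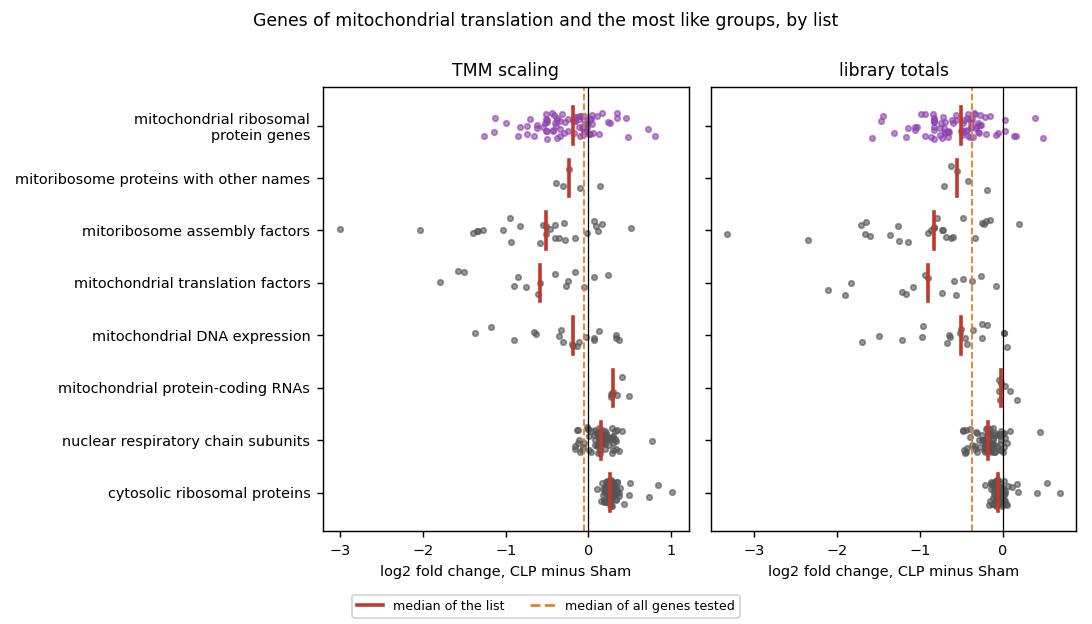
Log2 fold changes (CLP minus Sham) of every tested gene of 8 lists, with TMM scaling on the left and library totals on the right; red bars are list medians and the dashed line is the median of all genes tested. The members (median -0.19 and -0.51), the assembly factors (-0.51 and -0.82) and the translation factors (-0.58 and -0.90) lie left of the dashed line in both panels. The cytosolic ribosomal protein genes (0.26 and -0.06) lie right of it. The change of scaling shifts all genes by nearly the same amount, so the panels are not separate checks.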

How the data were processed

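The values are raw read counts per Ensembl gene, deposited by the authors in a single table, with a column for each library. Per the labels' protocols, RNA was isolated with an Aurum kit, and stranded TruSeq libraries were sequenced on an Element AVITI. The submitters' processing notes name FastQC, STAR 2.7.10b, featureCounts, DESeq2 and the build mm39. Neither the annotation release nor the strand setting is given in the sources used here. Symbols, transcript lengths, GC content and exon overlaps came from GENCODE mouse release M21 on an older build (52133 IDs with a symbol, 3281 without).

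Counts were filtered with filterByExpr, scaled by TMM and tested with edgeR 4.0.16 (robust quasi-likelihood F-test, R 4.3.3) on 2 groups of 4 libraries without covariates, with Benjamini-Hochberg adjustment over all genes tested and a threshold of 0.05. The SE was taken from the log2 fold change and F (its size over the root of F). No libraries within a group agreed within sampling noise (chi-square per degree of freedom at least 9.25). Counting intervals were not computed.

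The members and all gene lists were chosen with earlier results of these data known. Lists are described by counts and medians beside those of all genes, without a set test. Named were the 10 lowest called members and all called higher, the 3 most abundant per length in each subunit, the 3 nearest 0, those nearest the count rule, a fixed set, and the extremes and most abundant gene of each other list; further genes were named by role after their values were seen. Alternatives were DESeq2 1.42.0, limma-voom 3.58.1, DESeq2 size factors, library totals, other filters, 1 surrogate variable (sva 3.50.0), a replicate block and each library left out. Figures used Python 3.11.15 and matplotlib 3.10.9.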

Additional observations from a re-analysis of the deposited data

Results flagged for a closer look

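A library far from the other 3 of its group was looked for in 126 groups of 4 values, of named genes and list sums (Dixon's test at its 95% critical value). Chance flags about 1 in 20 groups, and 9 were found.

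One was a member: Mrpl24 stood at 24.6 CPM in Sham 4, against 22.7 to 22.9 CPM in the other Sham libraries. Chchd1 stood at 6.595 CPM in CLP 2, against 9.03 to 9.37 CPM in the other CLP libraries, and Tufm at 16.4 CPM in CLP 2, against 20.7 to 21.4 CPM. In CLP 3, Mrm2 stood at 1.15 CPM, against 0.331 to 0.384 CPM in the other CLP libraries, and Atp5l at 8.17 CPM, against 4.36 to 4.90 CPM. Tfam stood at 21.1 CPM in Sham 1, against 25.04 to 25.7 CPM in the other Sham libraries, and Polg at 62.2 CPM in Sham 3, against 56.2 to 57.1 CPM. In Sham 4 the summed erythroid markers stood at 1460 CPM, against 313 to 504 CPM in the other Sham libraries, and the summed cycling markers at 848 CPM, against 195 to 281 CPM. Sham 4 was the highest Sham library for 30 of the 77 members.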

How the results depend on the processing

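Library totals in place of TMM moved most counts. All genes were then 1288 higher and 6427 lower (45.9%), and members 1 and 57 (74.0%, the 26 lower calls among them). The large subunit had 1 higher and 38 lower, and the small subunit 19 lower. The member median was -0.51. The member share of counts had a ratio of 0.706. Of other-named mitoribosome proteins 4 were lower. Of mitochondrial DNA expression genes 0 were higher and 12 lower. The assembly factors, the mitochondrial protein-coding RNAs and the mitochondrial ribosomal RNAs had 0 higher each, and 2 regulators were higher. Cytosolic ribosomal proteins were 0 higher and 1 lower, and respiratory chain subunits 0 higher and 18 lower. Of the 77 members 12 changed sign, none of them called with TMM and 2 called with library totals. Of the genes chosen by the naming rule and called in either scaling, the sign changed for Mrpl33 (-0.29), Lrpprc (-0.26), mt-Co1 (-0.022) and mt-Rnr1 (-0.011). The cause was not tested beyond the shift of -0.32 in the median of all genes.

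Without a filter 1 mitochondrial DNA expression gene was higher. With DESeq2 size factors in edgeR 16 respiratory chain subunits were higher and the member median was -0.15. In that fit 21 members were lower (27.3%, against 21.6% of all genes). DESeq2 called 23 members lower (29.9%, against 16.9% of 18493 genes) and limma-voom 32 (41.6%, against 23.9%). Members that share no exon base, an alternative chosen after seeing the data, held 14 lower calls (31.1%, against 23.5% of all genes).

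Leaving out 1 library gave 14 to 24 members lower and 2 to 3 higher (median -0.25 to -0.17), 10 to 16 of the large and 4 to 9 of the small subunit lower, 0 to 1 other-named protein lower, 1 to 3 mitochondrial DNA expression genes higher, 0 to 1 mitochondrial ribosomal RNA higher, 29 to 75 cytosolic ribosomal proteins higher and 6 to 19 respiratory chain subunits higher.

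Libraries with the same replicate number did not deviate together (correlations 0.07, -0.04, 0.26 and -0.19, and 1 of 4 best with its own number). The numbers were therefore not treated as a pairing, though so few libraries cannot exclude one. With the replicate block 26 members were lower (33.8%, against 23.5% of all genes), 23 of them shared with the fit without it, and 2 higher. Depth limits the members below 5 CPM, such as Mrpl22, with 29 to 56 reads per CLP library.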
